A study of Homo sapiens with 12 samples.

Results

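The WNT pathway genes described here are the ligands, receptors and regulators of the pathway whose RNA was counted in HK2 cells, an immortalized line derived from human proximal tubular epithelium. The set was defined by gene symbol, and it was chosen with earlier results of these data known. It takes every WNT ligand, every Frizzled receptor (FZD), the co-receptors LRP5 and LRP6, and the secreted inhibitors (SFRP and DKK genes and WIF1). Also included are the feedback inhibitors AXIN2, NKD1, NKD2, RNF43 and ZNRF3, and the ligand maturation genes PORCN and WLS. CTNNB1 with its scaffolds APC and AXIN1 and the nuclear factors LEF1, TCF7, TCF7L1 and TCF7L2 complete the set. It holds 54 of the 58278 genes listed for each library. The 12 libraries fell into 6 groups of 2 biological replicates. Ctrl cells were untreated and TN cells received TNF-α at 5 ng/mL for 3 h. PRTN and BUTN cells received 15 mM propionate or 3 mM butyrate for 24 h before the same TNF-α, and TNPR and TNBU cells received the same short-chain fatty acids (SCFAs) for 24 h after it. The labels also carry a shared protocol text about thapsigargin and JQ1 that none of the libraries' own labels repeats, and the libraries' own labels were used. All groups are the same cell line, and every SCFA group also had TNF-α. None of the 12 libraries had TNF-α with the longer culture but no SCFA, so that SCFA exposure and time in culture cannot be told apart in TNPR and TNBU. No matched 24 h without an SCFA is listed for TN before its TNF-α either, so the same may hold in PRTN and BUTN.

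WNT proteins are secreted lipid-modified ligands. PORCN attaches the lipid in the endoplasmic reticulum and WLS carries the ligand to the cell surface. In the canonical branch a ligand joins a Frizzled receptor to LRP5 or LRP6, which halts the breakdown of β-catenin (CTNNB1) by a complex that holds APC and AXIN1, and β-catenin then works with LEF1 and the TCF factors in the nucleus. Ligands such as WNT5A and WNT11 are known mainly for branches that do not need β-catenin. In the developing kidney WNT9B and WNT4 drive the conversion of mesenchyme into tubular epithelium, and pathway genes are known to be switched on again after tubular injury.

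The expected counts summed to between 27269986 and 33851130 per library, so that 3 counts stood for 0.0867 to 0.112 CPM (counts scaled to a common library size, here with TMM factors that correct for library composition). Replicates differed by more than sampling noise in every group, and by most in TNPR and TNBU, where the chi-square statistic per gene was 12.9 and 15.3, against 2.85 to 5.48 in the other groups. The epithelial keratins KRT8 and KRT18 averaged 783 and 367 CPM in Ctrl, and the kidney lineage gene PAX8 averaged 364 CPM. Several marker lists of 6 genes each moved with the SCFAs. The differentiated proximal tubule markers summed to 181 to 224 CPM in Ctrl and TN and 71.0 to 94.0 CPM with an SCFA. GGT1 made up most of this sum and averaged 221 and 194 CPM in Ctrl and TN and 63.9 to 72.4 CPM with an SCFA. The endocytic receptor LRP2 was at 0 in every Ctrl and TN library and averaged 0.448 to 0.869 CPM with an SCFA, AQP1, ANPEP and CUBN were also higher there, and the defining transporter SLC34A1 averaged at most 0.0746 CPM in any group. Endothelial markers summed to 0.143 to 0.287 CPM in Ctrl and TN and 2.29 to 3.87 CPM with an SCFA, and lymphocyte markers to at most 0.0359 and 0.448 CPM. Macrophage markers summed to 30.6 to 36.7 CPM in Ctrl and TN and 28.7 to 53.3 CPM with an SCFA. The summed fibroblast markers ranged from 52.7 to 59.7 CPM in Ctrl and TN and from 204 to 255 CPM in the SCFA groups. COL1A1 made up most of this rise. LUM averaged 6.155 and 8.029 CPM in Ctrl and TN and 44.96 to 47.16 CPM with an SCFA. PDGFRA and PDGFRB were also higher there, and DCN was lower. The defining marker COL1A2 was at 0 in Ctrl and TN and averaged 0.2056 to 0.4213 CPM with an SCFA. The summed kidney lineage markers ranged from 1374 to 1807 CPM in Ctrl and TN and from 258 to 346 CPM with an SCFA, and the epithelial markers from 1212 to 1314 CPM and from 1820 to 2417 CPM. Within the epithelial list the adhesion gene CDH1 averaged 0.267 CPM in Ctrl, 0.109 CPM in TN and 9.94 to 14.1 CPM with an SCFA, while EPCAM averaged 56.1 and 57.1 CPM in Ctrl and TN and 15.3 to 22.1 CPM with an SCFA. The part of these shifts in the results below was not tested.

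Reference sequence upstream of a listed transcription start is shown first. It covers, of the WNT genes that reached 1 CPM in a group, some with large rises and both that fell in all SCFA groups. The rises shown are among the 7 largest of these genes, of which LEF1, NKD1, WNT11 and DKK1 are not shown. The sequences are those of RefSeq (GRCh38.p14) within 250 bases before the first start listed, for RNF43 (chr17:58417596-58417784, minus strand), NKD2 (chr5:1008552-1008801, plus strand), TCF7L1 (chr2:85133142-85133391, plus strand), WNT5A (chr3:55487399-55487556, minus strand) and WLS (chr1:68232546-68232659, minus strand), printed 5′ to 3′ on the strand of the gene, and bases that lie in an exon of GENCODE release 44 were left out. Capitals mark the letters CTTTG, the core bound by TCF and LEF factors, and GGGNNNNNCC, a loose form of the NF-κB motif, each searched on both strands.
RNF43: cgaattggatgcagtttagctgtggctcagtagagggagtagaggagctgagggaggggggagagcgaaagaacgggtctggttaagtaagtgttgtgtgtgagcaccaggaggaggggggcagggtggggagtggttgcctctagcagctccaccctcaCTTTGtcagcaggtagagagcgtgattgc
NKD2: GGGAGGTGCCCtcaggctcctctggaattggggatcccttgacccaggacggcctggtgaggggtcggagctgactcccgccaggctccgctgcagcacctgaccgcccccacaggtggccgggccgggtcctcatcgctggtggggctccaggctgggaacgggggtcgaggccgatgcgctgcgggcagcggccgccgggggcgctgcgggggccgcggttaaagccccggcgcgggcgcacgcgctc
TCF7L1: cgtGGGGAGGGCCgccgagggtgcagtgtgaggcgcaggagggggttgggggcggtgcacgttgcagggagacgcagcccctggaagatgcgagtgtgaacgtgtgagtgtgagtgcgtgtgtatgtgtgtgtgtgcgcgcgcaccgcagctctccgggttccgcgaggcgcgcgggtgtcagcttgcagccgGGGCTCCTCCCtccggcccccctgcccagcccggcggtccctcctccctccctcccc
WNT5A: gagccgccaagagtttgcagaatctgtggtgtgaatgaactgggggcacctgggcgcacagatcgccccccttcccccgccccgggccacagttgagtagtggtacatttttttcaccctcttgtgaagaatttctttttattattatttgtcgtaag
WLS: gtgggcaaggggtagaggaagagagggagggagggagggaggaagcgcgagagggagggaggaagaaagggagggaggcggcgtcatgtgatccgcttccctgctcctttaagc

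RNF43 held CTTTG, NKD2 and TCF7L1 held GGGNNNNNCC in overlapping or separate matches, and the stretches of WNT5A and WLS, the genes that fell in all SCFA groups, held neither. RefSeq promoters matched 38 of the 54 genes, and in the full windows of 250 bases CTTTG was present in 7 of these 38 and in 42.1% of the 35116 promoters of all genes. GGGNNNNNCC was present in 31 of the 38 and in 54.4% of all promoters. The letters GGGCGG, the GC box of Sp factors, were present in 31 of the 38 and in 42.6% of all promoters. A match describes these letters in these windows only, and a gene can use other starts.

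Differences were tested with limma-voom in a model of all 12 libraries, and a gene was called where the fold change was over 1.5 and the Benjamini-Hochberg adjusted p over the 24342 genes kept by a filter on low counts was under 0.05. The filter, a geometric mean of at least 1 count, kept 46 of the 54 WNT genes. Because the filter runs over all libraries, a gene near 0 in Ctrl and TN passed through its SCFA libraries and had to differ, so the counts of genes that follow describe the set and do not support a difference from other genes. The 4 contrasts of an SCFA group with TN share the 2 TN libraries. The heatmap of every tested gene shows the whole set at once.

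**Figure D1:**
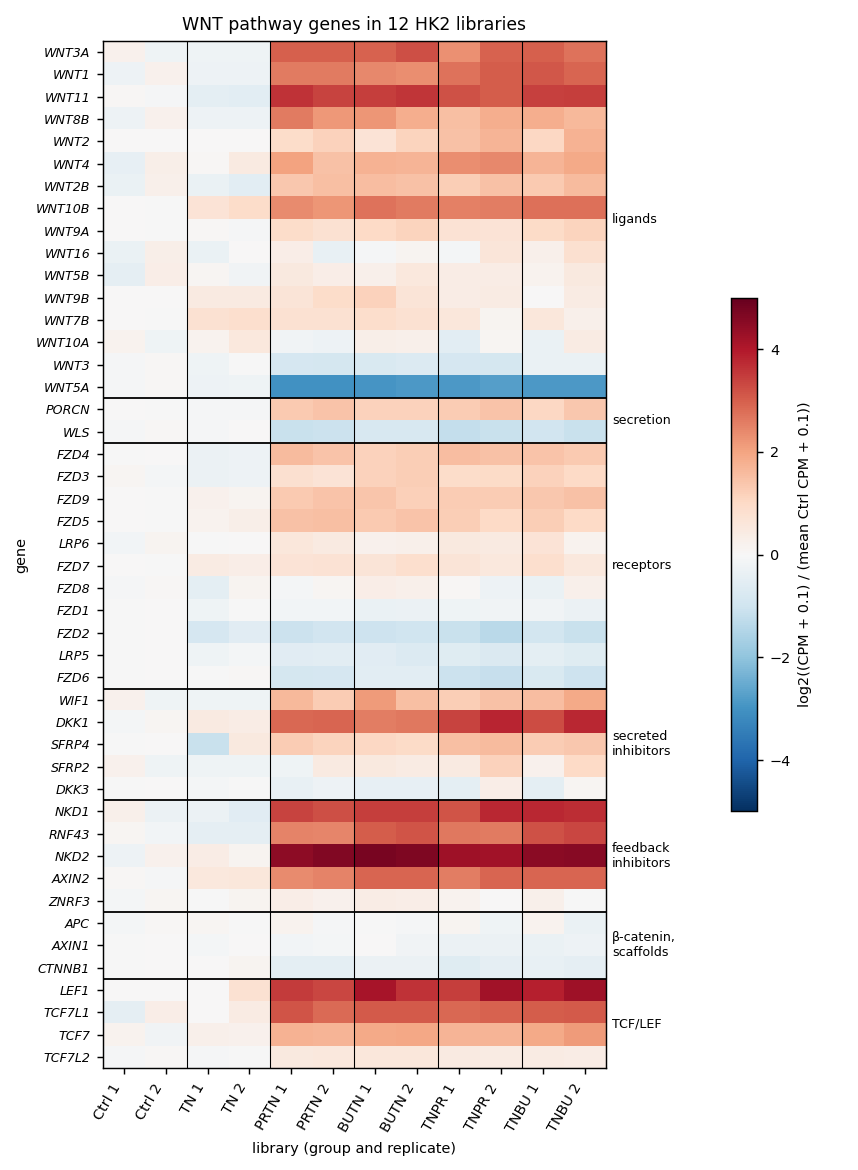
Level of the 46 tested WNT genes (rows, grouped by role) in each of the 12 libraries (columns), as the log2 of CPM plus 0.1 over the mean Ctrl CPM plus 0.1. Red is above and blue below the Ctrl mean, and the colours stop at 5 in both directions; Ctrl and TN columns are close to white, and the 8 SCFA columns resemble each other, with many red rows and a blue row for WNT5A.

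TNF-α alone moved few WNT genes. In TN against Ctrl, 2 of the 46 tested genes were called higher and 1 lower, against 0.764% and 0.534% of all tested genes. The ligand WNT7B, known in kidney for the outgrowth of the medulla, stood at 25.8 and 25.3 CPM in Ctrl and 43.7 and 46.3 CPM in TN. Both TN libraries were above both Ctrl libraries, by a log2 fold change of 0.82 (SE 0.13, adjusted p = 0.00435, limma-voom). Without Ctrl replicate 2 or TN replicate 2 the adjusted p of WNT7B was 0.051 or 0.0526. WNT10B, a canonical ligand, was at 1.51 and 1.47 CPM in Ctrl and 2.42 and 2.91 CPM in TN, again without overlap (log2 fold change 0.83, SE 0.21, adjusted p = 0.0481, limma-voom), a call at the edge of the threshold that was lost in 12 of 20 alternative settings (adjusted p up to 0.238). The receptor FZD2 fell from 31.8 and 32.9 CPM to 18.1 and 22.1 CPM, a log2 fold change of -0.69 (SE 0.11, adjusted p = 0.00336, limma-voom). The lower TN library, replicate 1, carried part of this fall, since without it the change was -0.55 with an adjusted p of 0.0553. WNT5A, at 61.6 and 68.0 CPM in Ctrl and 54.3 and 55.9 in TN, did not pass (adjusted p = 0.0811, limma-voom).

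With an SCFA the picture was larger and mostly upward. In PRTN 24 of the 46 tested WNT genes were called higher than in TN and 4 lower, where 23.9% and 16.7% of all tested genes were. BUTN had 25 higher and 3 lower (all genes, 23.1% and 14.8%), TNPR had 25 higher and 5 lower (24.9% and 16.9%), and TNBU had 24 higher and 3 lower (25.0% and 16.5%). The calls fell on much the same genes, as 24 WNT genes were higher and 2 were lower in all 4 contrasts, which is 52.2% and 4.35% of those tested, while 18.4% and 11.9% of all tested genes were. Among the 33 WNT genes that averaged at least 1 CPM over all libraries, 15 to 16 were called higher and 3 to 5 lower per contrast, and their median log2 fold change was 0.44 to 0.51, against -0.06 to -0.04 over the 14984 genes at that level. All genes at that level were called higher in 21.8% to 24.3% and lower in 20.3% to 23.6%. This cut also runs over the SCFA libraries. NKD1, WNT11, NKD2 and TCF7L1 averaged 0.0917, 0.183, 0.439 and 0.784 CPM in TN and passed it through their SCFA libraries. These counts and medians therefore describe the set as well, and do not support a difference from other genes. Since RNA was measured in bulk, fewer cells of a kind and less RNA per cell cannot be told apart in any of these differences.

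**Figure D2:**
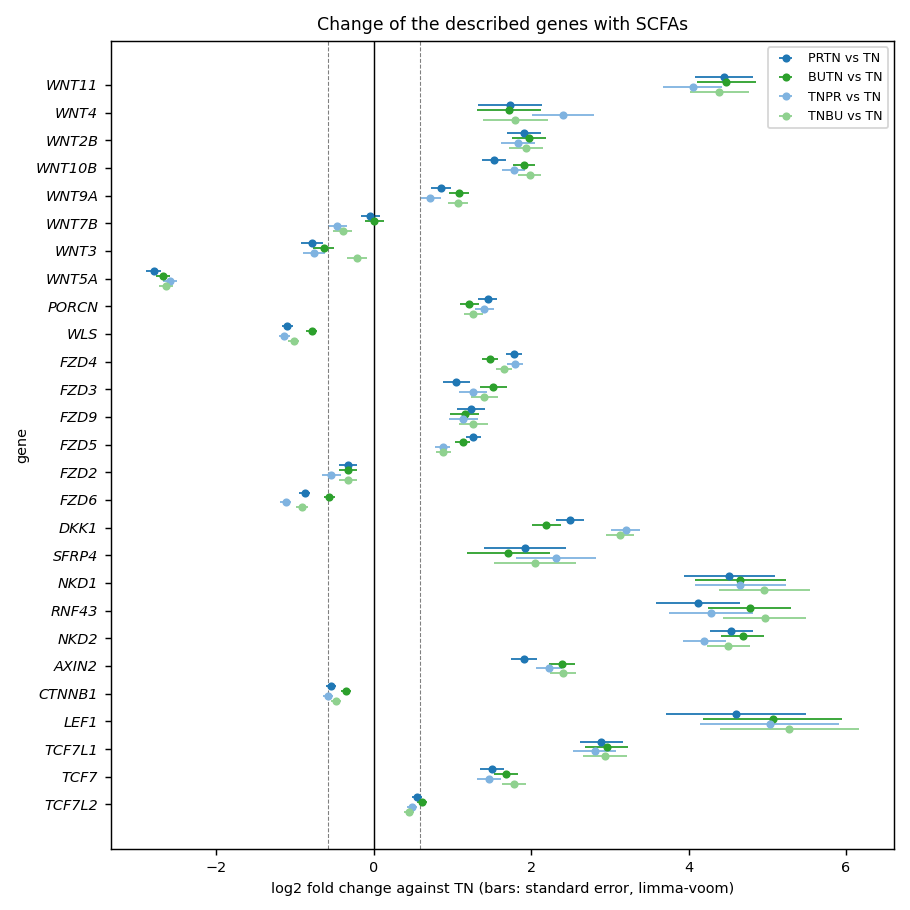
Log2 fold change against TN of the 27 WNT genes that were called in at least 1 contrast and reached 1 CPM in a group, one point for each of PRTN, BUTN, TNPR and TNBU, with bars of 1 SE from limma-voom and dashed lines at a 1.5-fold change. The 4 points of most genes lie close together, from about -2.8 to -2.6 for WNT5A to 4.60 and above for LEF1. Those of DKK1 lie farther apart, from 2.19 in BUTN to 3.20 in TNPR.

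Of the 19 ligands, 16 were tested, and 9 of these rose in all 4 SCFA groups and 1 fell in all 4, beside 18.4% and 11.9% of all tested genes. Another 1 fell in some and 5 were never called against TN. The 9 include WNT1, WNT2, WNT3A and WNT8B, which had no count in TN. WNT5A showed the largest fall of the set, with 61.6 and 68.0 CPM in Ctrl and 54.3 and 55.9 in TN, then 7.90 and 7.91 for PRTN, 8.35 and 8.81 for BUTN, 8.80 and 9.53 for TNPR, and 8.83 and 8.80 for TNBU. Every SCFA library lay far below every Ctrl and TN library, whether the SCFA came before or after TNF-α. Its log2 fold changes against TN were -2.80, -2.68, -2.59 and -2.64 in PRTN, BUTN, TNPR and TNBU (SE 0.09, adjusted p at most 7.06e-10, limma-voom), or about 6.02-fold to 6.96-fold lower. WNT3, a canonical ligand, had 5.46 and 5.81 CPM in Ctrl and 4.88 and 5.56 in TN, then 3.07 and 2.98 for PRTN, 3.25 and 3.44 for BUTN, 3.14 and 3.01 for TNPR, and 4.48 and 4.48 for TNBU. All SCFA libraries were below both TN libraries, and TNBU came closest to them. WNT3 fell in PRTN, BUTN and TNPR (log2 fold changes -0.78, -0.64 and -0.76, adjusted p at most 0.00136, limma-voom) but was not called in TNBU (-0.22, adjusted p = 0.169). The value in BUTN passed the fold threshold narrowly and missed it when libraries were scaled by their size alone (-0.48) or without TN replicate 2 (-0.56).

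WNT11, a ligand of the β-catenin-independent branches, showed the largest rise among the ligands above 1 CPM, with 0.309 and 0.287 CPM in Ctrl and 0.186 and 0.179 in TN, then 4.72 and 4.08 for PRTN, 4.29 and 4.65 for BUTN, 3.52 and 3.10 for TNPR, and 4.10 and 4.30 for TNBU. All 8 SCFA libraries were over 3 CPM and all Ctrl and TN libraries under 0.31 CPM. The TN libraries held 10 counts of WNT11 in all, and the ratio of the SCFA groups to TN was 18.2 (95% counting interval 9.69 to 38.4) in TNPR to 24.5 (13.1 to 51.6) in BUTN, with an adjusted p of at most 1.26e-06 in limma-voom. WNT4, the ligand of tubule formation, had 0.137 and 0.287 CPM in Ctrl and 0.223 and 0.323 in TN, then 1.16 and 0.760 for PRTN, 0.939 and 0.925 for BUTN, 1.45 and 1.57 for TNPR, and 0.911 and 1.06 for TNBU. Its SCFA values exceeded those of TN in every library, and the highest were in TNPR. Its log2 fold changes were 1.73, 1.72, 2.40 and 1.80 (SE 0.39 to 0.41, adjusted p at most 0.00314, limma-voom).

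WNT10B, WNT9A and WNT2B, canonical ligands with measurable levels in untreated cells, also rose in all 4 SCFA groups. WNT10B, already somewhat higher in TN than in Ctrl, reached 8.13 and 7.27 for PRTN, 10.5 and 9.62 for BUTN, 9.03 and 9.27 for TNPR, and 10.5 and 10.5 for TNBU, against 2.42 and 2.91 CPM in TN. The SCFA libraries did not overlap with TN, and the log2 fold changes were 1.53, 1.91, 1.78 and 1.98 (SE 0.15, adjusted p at most 2.16e-06, limma-voom). WNT9A had 4.81 and 4.55 CPM in Ctrl and 4.88 and 4.45 in TN, then 8.92 and 7.97 for PRTN, 9.42 and 10.4 for BUTN, 7.85 and 7.52 for TNPR, and 9.28 and 10.4 for TNBU. Ctrl and TN were alike for WNT9A and the SCFA libraries were all above them, with log2 fold changes of 0.85, 1.08, 0.72 and 1.07 (SE 0.13, adjusted p at most 0.000457, limma-voom). WNT2B had 2.31 and 3.53 CPM in Ctrl and 2.28 and 1.98 in TN, then 7.62 and 8.49 for PRTN, 8.60 and 8.20 for BUTN, 7.05 and 8.23 for TNPR, and 7.46 and 8.97 for TNBU. The groups were again separate for WNT2B, with log2 fold changes of 1.91, 1.97, 1.83 and 1.94 (SE 0.21 to 0.22, adjusted p at most 1.17e-05, limma-voom). WNT2B overlaps ST7L on the other strand, whose level was 13.7 and 14.8 CPM in TN and 7.67 to 9.65 CPM in SCFA groups, and the strand setting of the counting is not given in the sources used here.

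WNT7B, the ligand that rose with TNF-α, was the exception among the abundant ligands in that no SCFA group was called against TN. Its CPM were 43.6 and 43.9 for PRTN, 47.0 and 43.5 for BUTN, 38.0 and 28.0 for TNPR, and 37.9 and 30.9 for TNBU, against 43.7 and 46.3 in TN. PRTN and BUTN overlapped with TN, while every TNPR and TNBU library lay below TN and above Ctrl. The log2 fold changes were -0.04, 0.01, -0.46 and -0.40, of which the last 2, with adjusted p-values of 0.00673 and 0.0164 in limma-voom, stayed under a 1.5-fold change. The plot by library of 9 genes shows these levels.

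**Figure D3:**
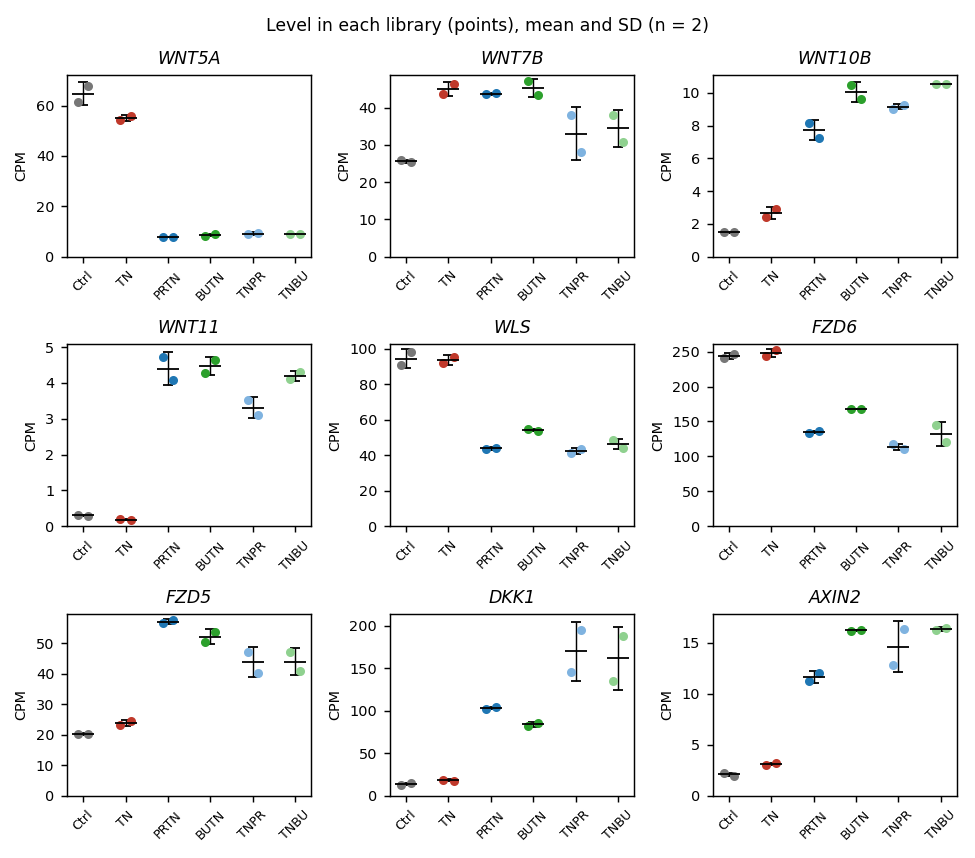
CPM in each library (points) with the mean and SD of the 2 replicates for 9 WNT genes in the 6 groups. WNT5A, WLS and FZD6 drop in the SCFA groups, WNT10B, WNT11, FZD5, DKK1 and AXIN2 rise, and WNT7B rises with TNF-α and stays between 28.0 and 47.0 CPM in the SCFA groups; DKK1 is highest in TNPR and TNBU, where its replicates also lie farthest apart.

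A further group of ligands was called higher in all 4 SCFA groups from almost no counts in TN, namely WNT1, WNT2, WNT3A and WNT8B. None of them had a count in either TN library, and each stayed under 1 CPM in every group. They passed the filter only through their SCFA libraries, so their calls are not used as support. WNT3A reached 0.840 and 0.821 for PRTN, 0.813 and 0.982 for BUTN, 0.474 and 0.800 for TNPR, and 0.841 and 0.664 for TNBU, which against the 3 counts that a count of 0 allows in a TN library is at least 5.70-fold higher in TNPR to at least 8.04-fold higher in BUTN. WNT1 was at 0.608 and 0.608 for PRTN, 0.532 and 0.491 for BUTN, 0.681 and 0.864 for TNPR, and 0.911 and 0.797 for TNBU, at least 4.58-fold to at least 7.64-fold higher. WNT8B was at 0.608 and 0.426 for PRTN, 0.438 and 0.318 for BUTN, 0.237 and 0.320 for TNPR, and 0.315 and 0.266 for TNBU, at least 2.49-fold to at least 4.63-fold higher. WNT2 held 6 to 13 counts per SCFA group, with levels over that limit in TNPR and TNBU alone (at least 1.80-fold and 1.51-fold higher), and its calls in PRTN, BUTN and TNBU were lost with DESeq2. WNT1 lies beside WNT10B on chromosome 12 (48978322-48982620 and 48965340-48971735 in GRCh38), and WNT3A beside WNT9A on chromosome 1 (228006998-228061271 and 227918656-227947932). Both members of each of these 2 neighbouring pairs were higher with SCFAs, though WNT1 and WNT3A are not used as support. WNT6 (218859805-218874233) and WNT10A (218880852-218899581), neighbours on chromosome 2, were not called, and WNT6 did not pass the filter. Of all tested WNT genes 52.2% rose in all 4 contrasts, and a link between neighbours was not tested. On chromosome 17 WNT3 (46762506-46833154), which fell in 3 SCFA groups, lies beside WNT9B (46833201-46886730), the ureteric bud ligand, which was listed at 0 to 4 counts in every library. WNT5B ranged from 1.34 to 2.72 CPM, WNT10A from 0.800 to 1.76 CPM and WNT16 from 0.0304 to 0.199 CPM over the 12 libraries, and none of these was called in any contrast. WNT6, WNT7A and WNT8A did not pass the filter, with at most 5, 2 and 0 counts in a library.

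Levels of different ligands were compared as CPM per kilobase of exon. In Ctrl WNT5A made up 49.8% of the summed ligand level and WNT7B 27.7%. In TN WNT7B came first with 42.2%, at 8.86 CPM per kb, and WNT5A second with 36.6%, at 7.70 CPM per kb. In each SCFA group WNT7B stayed first (34.1% in TNBU to 43.3% in PRTN), followed by WNT10B (14.9% in PRTN to 20.4% in TNBU), WNT9A and WNT11, while WNT5A was the fifth with 5.53% to 7.20%. The order of the first 5 ligands was the same in the 4 SCFA groups.

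**Figure D4:**
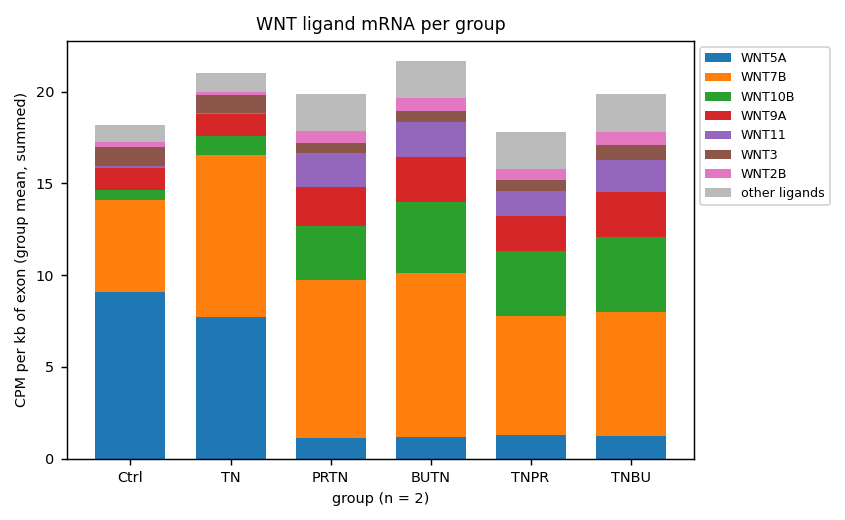
Mean level of each WNT ligand in the 6 groups as CPM per kilobase of exon, stacked. WNT5A and WNT7B fill most of the Ctrl and TN bars, and in the 4 SCFA bars WNT5A shrinks while WNT10B, WNT9A and WNT11 take more of the total.

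The genes that ready the ligands for secretion moved in opposite directions. PORCN, the acyltransferase, had 11.1 and 11 CPM in Ctrl and 10.6 and 10.6 in TN, then 27.8 and 30.3 for PRTN, 24.7 and 24.7 for BUTN, 26.5 and 30.0 for TNPR, and 22.8 and 28.6 for TNBU. Every SCFA library was over 22 CPM and every other library under 12 CPM, with log2 fold changes of 1.45, 1.21, 1.40 and 1.27 (SE 0.12, adjusted p at most 3.51e-06, limma-voom). WLS, the ligand carrier, had 90.8 and 98.3 CPM in Ctrl and 91.9 and 95.6 in TN, then 43.4 and 44.3 for PRTN, 54.6 and 53.8 for BUTN, 41.4 and 43.8 for TNPR, and 48.4 and 44.2 for TNBU. The WLS levels of all SCFA libraries were well below those of Ctrl and TN, and BUTN was the highest of the 4 groups. WLS fell by 1.10, 0.79, 1.14 and 1.02 on the log2 scale in PRTN, BUTN, TNPR and TNBU (SE 0.07, adjusted p at most 7.6e-07, limma-voom).

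Of the 12 receptors 11 were tested, and 4 Frizzled genes rose in all SCFA groups, FZD6 fell in 3 of them, and 6 receptors were never called against TN. Of all tested genes 18.4% rose in all 4 SCFA groups. FZD4, which also serves the ligand norrin, had 9.69 and 9.72 CPM in Ctrl and 7.86 and 8.14 in TN, then 29.1 and 26.1 for PRTN, 21.8 and 22.6 for BUTN, 28.8 and 26.9 for TNPR, and 25.9 and 24.4 for TNBU. The SCFA libraries were all above 21 CPM and the others below 10 CPM, with log2 fold changes of 1.78, 1.47, 1.80 and 1.65 (SE 0.10, adjusted p at most 1.49e-07, limma-voom). FZD4 overlaps PRSS23 on the other strand, and PRSS23 rose alongside it, from 207 and 211 CPM in TN to between 331 and 401 CPM with an SCFA. FZD5, a receptor of canonical signalling, had 20.4 and 20.1 CPM in Ctrl and 23.1 and 24.5 in TN, then 56.6 and 57.6 for PRTN, 50.4 and 53.8 for BUTN, 47.2 and 40.2 for TNPR, and 47.0 and 40.9 for TNBU. PRTN and BUTN held the highest values, and all SCFA groups were separate from TN (log2 fold changes 1.26, 1.13, 0.88 and 0.88, SE 0.09 to 0.10, adjusted p at most 6.49e-06, limma-voom). The difference of FZD5 between TNPR and PRTN, -0.39, did not pass (adjusted p = 0.123, limma-voom).

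FZD3, known for planar polarity and axon guidance, had 2.13 and 1.87 CPM in Ctrl and 1.60 and 1.64 in TN, then 3.53 and 3.23 for PRTN, 4.60 and 4.77 for BUTN, 3.89 and 3.94 for TNPR, and 4.55 and 4.11 for TNBU. All SCFA libraries exceeded all others, with log2 fold changes of 1.05, 1.52, 1.26 and 1.40 (SE 0.17 to 0.18, adjusted p at most 0.000235, limma-voom). FZD9 had 1.30 and 1.25 CPM in Ctrl and 1.49 and 1.44 in TN, then 3.30 and 3.65 for PRTN, 3.5 and 3.09 for BUTN, 3.26 and 3.23 for TNPR, and 3.40 and 3.68 for TNBU. The same separation was seen, with log2 fold changes of 1.23, 1.16, 1.14 and 1.27 (SE 0.18, adjusted p at most 0.000167, limma-voom). FZD6, which is mainly known as a planar polarity receptor, was the most abundant Frizzled gene in every group and had 241 and 246 CPM in Ctrl and 244 and 252 in TN, then 134 and 136 for PRTN, 167 and 168 for BUTN, 117 and 111 for TNPR, and 145 and 120.3 for TNBU. Ctrl and TN overlapped and every SCFA library was lower. Its log2 fold changes were -0.88, -0.56, -1.12 and -0.91 (SE 0.07, adjusted p at most 2.78e-05, limma-voom), and the value in BUTN was under a 1.5-fold change and was not called. Per kilobase of exon FZD6 made up 73.4% of the summed Frizzled level in Ctrl and 76.4% in TN, and 54.1% in TNPR to 62.4% in BUTN with SCFAs, where FZD5 took second place with 11% to 13.6%. FZD2, lowered by TNF-α, stood at 15.3 and 16.7 for PRTN, 15.8 and 16.1 for BUTN, 15.0 and 12.6 for TNPR, and 17.1 and 14.9 for TNBU, below both TN libraries throughout, and the log2 fold changes of -0.32, -0.32, -0.54 and -0.33 did not reach 1.5-fold.

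Among the receptors never called, FZD1 ranged from 34.8 to 44.6 CPM, FZD7 from 8.34 to 15.3 CPM, FZD8 from 0.335 to 0.657 CPM, the co-receptor LRP5 from 39.0 to 66.6 CPM and LRP6 from 64.4 to 112 CPM. LRP5 was below both TN libraries in every SCFA library and LRP6 above them, with fitted changes of the group means under 1.5-fold. Scaling by library size alone, which shifted the median of all genes by 0.16 to 0.20 in these contrasts, made LRP6 called in PRTN, TNPR and TNBU (0.66, 0.66 and 0.64), and LRP6 was also called in TNBU without TNBU replicate 2 (0.68). LRP5 was called lower in TNPR without TN replicate 1 (-0.60) or TNPR replicate 1 (-0.62). FZD10 had no count in any library. Counts of FZD1, FZD2, FZD4, FZD6 and FZD7 were fractional in all 12 libraries, those of FZD3 and WNT2B in 11 and those of WLS in 10. Fractions arise where reads that fit several genes are shared out. With which genes they were shared was not examined, and these levels carry the uncertainty of that division.

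The secreted inhibitors were led by DKK1, which binds LRP5 and LRP6 and blocks canonical signalling. It had 12.8 and 14.9 CPM in Ctrl and 18.9 and 17.8 in TN, then 102 and 104 for PRTN, 81.9 and 85.7 for BUTN, 146 and 195 for TNPR, and 136 and 188 for TNBU. Every SCFA library was above 81 CPM and every Ctrl and TN library below 19 CPM, and the libraries with the SCFA after TNF-α were the highest. The log2 fold changes against TN were 2.49, 2.19, 3.20 and 3.13 (SE 0.18, adjusted p at most 7.59e-07, limma-voom). SFRP4, a decoy receptor for WNT ligands, had 0.275 and 0.287 CPM in Ctrl and 0.0745 and 0.431 in TN, then 0.811 and 0.730 for PRTN, 0.688 and 0.636 for BUTN, 0.977 and 1.06 for TNPR, and 0.806 and 0.863 for TNBU. Its SCFA values were above both TN libraries, but the 2 TN libraries lay far apart. The log2 fold changes of 1.93, 1.71, 2.32 and 2.04 (SE 0.51 to 0.53, adjusted p at most 0.0151, limma-voom) shrank without TN replicate 1 to 0.78, 0.56 and 0.91 in PRTN, BUTN and TNBU, with adjusted p-values of 0.111, 0.253 and 0.0674, and to 1.17 in TNPR (adjusted p = 0.0215). Without TN replicate 2 they were 2.84 to 3.44. WIF1, which binds WNT ligands directly, had no count in TN and was at 0.261 and 0.182 for PRTN, 0.407 and 0.231 for BUTN, 0.178 and 0.224 for TNPR, and 0.245 and 0.332 for TNBU, at least 1.80-fold to at least 2.86-fold higher. WIF1 passed the filter only through its SCFA libraries, so its calls are not used as support. SFRP2 was called in TNPR but likewise passed the filter only through its SCFA libraries and had 2 to 7 counts per SCFA group, too few for a bound. DKK3, a DKK relative that does not act on LRP5 or LRP6, ranged from 82.2 to 147 CPM and was not called, with the 2 extremes in TNBU and TNPR. DKK2, DKK4, SFRP1 and SFRP5 had at most 2, 0, 0 and 1 counts in a library.

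Of the 5 genes grouped as feedback inhibitors, AXIN2, NKD1, RNF43 and ZNRF3 are known to be induced by canonical signalling itself. In all 4 SCFA groups 4 of the 5 rose, as did 18.4% of all tested genes. AXIN2, a scaffold of the β-catenin breakdown complex and the usual readout of canonical signalling, had 2.20 and 1.97 CPM in Ctrl and 3.02 and 3.16 in TN, then 11.3 and 12 for PRTN, 16.2 and 16.3 for BUTN, 12.9 and 16.4 for TNPR, and 16.2 and 16.5 for TNBU. The SCFA libraries were all above 11 CPM and the others below 3.2 CPM, with log2 fold changes of 1.91, 2.39, 2.22 and 2.40 (SE 0.16 to 0.17, adjusted p at most 8.6e-07, limma-voom). NKD2, which binds Dishevelled, had 0.275 and 0.430 CPM in Ctrl and 0.484 and 0.395 in TN, then 10.0 and 11.2 for PRTN, 12 and 11.5 for BUTN, 8.50 and 8.19 for TNPR, and 10.2 and 10.5 for TNBU. Nothing overlapped between SCFA and other libraries for NKD2, and the log2 fold changes were 4.54, 4.69, 4.20 and 4.50 (SE 0.27 to 0.28, adjusted p at most 7.22e-08, limma-voom). Its relative NKD1 had 0.206 and 0.108 CPM in Ctrl and 0.112 and 0.0718 in TN, then 2.61 and 2.31 for PRTN, 2.72 and 2.69 for BUTN, 2.19 and 3.39 for TNPR, and 3.43 and 3.25 for TNBU, and the 5 counts of TN gave ratios of 26.9 (95% counting interval 11.3 to 84.1) in PRTN to 36.6 (15.4 to 114) in TNBU. RNF43, a ubiquitin ligase that removes Frizzled receptors from the surface, had 0.103 and 0.0717 CPM in Ctrl and 0.0372 and 0.0359 in TN, then 0.941 and 0.927 for PRTN, 1.44 and 1.54 for BUTN, 1.07 and 1.03 for TNPR, and 1.60 and 1.80 for TNBU. With 2 counts in TN, the ratio of RNF43 was 25.6 (6.79 to 216) in PRTN, 40.7 (11 to 341) in BUTN, 28.6 (7.62 to 241) in TNPR and 46.6 (12.6 to 390) in TNBU. Both genes were called in all 4 contrasts (adjusted p at most 2.54e-05 for NKD1 and 2.75e-05 for RNF43, limma-voom). ZNRF3, the ligase paired with RNF43, ranged from 15.2 to 21.1 CPM over the 12 libraries and was never called. So of this group of 5, ZNRF3 alone stayed within a 1.5-fold change of TN.

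CTNNB1, which encodes β-catenin, had 259 and 260.1 CPM in Ctrl and 261 and 282 in TN, then 186 and 187 for PRTN, 213 and 210.3 for BUTN, 170.4 and 192 for TNPR, and 198 and 190.0 for TNBU. All SCFA libraries were below all others, by log2 fold changes of -0.54, -0.36, -0.58 and -0.48 (SE 0.06, adjusted p at most 0.000358, limma-voom). The value in TNPR was just past a 1.5-fold change and the only one called, and 11 of 20 alternative settings put it below. APC and AXIN1, the scaffolds, ranged from 22.1 to 32.0 CPM and from 18 to 23.5 CPM and were never called. Of the nuclear factors, LEF1 had 0 and 0 CPM in Ctrl and 0 and 0.0718 in TN, then 1.04 and 0.913 for PRTN, 1.66 and 1.13 for BUTN, 1.01 and 1.76 for TNPR, and 1.37 and 1.79 for TNBU. It was at 0 in 3 of the 4 libraries without an SCFA, and the 2 counts in TN gave ratios of 26.8 (95% counting interval 7.13 to 226) in PRTN to 43.4 (11.7 to 363) in TNBU. LEF1 passed the filter only through its SCFA libraries, so its calls against TN are not used as support. TCF7 had 2.78 and 2.19 CPM in Ctrl and 3.02 and 2.93 in TN, then 8.57 and 8.33 for PRTN, 9.42 and 9.71 for BUTN, 8.23 and 8.25 for TNPR, and 9.46 and 11.1 for TNBU. It rose in each SCFA group (log2 fold changes 1.5, 1.68, 1.46 and 1.78, SE 0.15, adjusted p at most 3.59e-06, limma-voom). TCF7 overlaps SKP1 on the other strand, which had 161 and 152 CPM in TN and 179 to 201 CPM with an SCFA. TCF7L1, known mostly as a repressor of target genes, had 0.446 and 0.860 CPM in Ctrl and 0.670 and 0.897 in TN, then 6.51 and 5.29 for PRTN, 6.19 and 6.16 for BUTN, 5.45 and 5.66 for TNPR, and 6.03 and 6.14 for TNBU. The TCF7L1 libraries with an SCFA were all above 5 CPM and the others below 0.9 CPM (log2 fold changes 2.89, 2.96, 2.81 and 2.94, SE 0.27, adjusted p at most 2.17e-06, limma-voom). TCF7L2 had 44.5 and 48.6 CPM in Ctrl and 44.3 and 45.6 in TN, then 65.0 and 66.5 for PRTN, 69.2 and 68.6 for BUTN, 63.3 and 62.5 for TNPR, and 61.7 and 60.6 for TNBU. It was higher in every SCFA library, and only the value in BUTN (0.62, adjusted p = 3.49e-06, limma-voom) passed the fold threshold, which it missed with edgeR's default filter (0.58) and without TN replicate 1 (0.57) or BUTN replicate 1 (0.58).

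Propionate at 15 mM and butyrate at 3 mM differ in dose and in chain length, butyrate being longer by a carbon, and the direct comparison covers both differences together. No WNT gene was called between PRTN and BUTN or between TNPR and TNBU with limma-voom, where 0.168% and 0.00822% of all tested genes were. At an unadjusted p under 0.05 there were 12 and 8 of the 46, and edgeR and DESeq2 also called 0 in both (10 and 7, and 8 and 3, at an unadjusted p). Among the 27 genes described above the difference, propionate minus butyrate, ran from -0.66 to 0.31 before TNF-α and from -0.68 to 0.60 after it, and 19 and 20 genes were lower with propionate. The 95% interval of the difference stayed within 1.5-fold for 18 genes before TNF-α and 19 after it, so for the rest a difference of that size was not excluded. The largest differences in favour of butyrate were those of RNF43, -0.66 (-1.12 to -0.21) before and -0.68 (-1.13 to -0.24) after TNF-α, with adjusted p-values of 0.176 and 0.395 (limma-voom). The smallest adjusted p-values before TNF-α were those of AXIN2 (-0.48, -0.71 to -0.25, adjusted p = 0.069), WLS (-0.31, adjusted p = 0.0733) and FZD6 (-0.32, adjusted p = 0.0801), all in limma-voom, and both PRTN libraries lay below both BUTN libraries for each. After TNF-α these differences were -0.18, -0.12 and -0.21. WNT5A differed by -0.12 (-0.35 to 0.11) and 0.05 (-0.18 to 0.28), an interval within 1.5-fold both times.

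**Figure D5:**
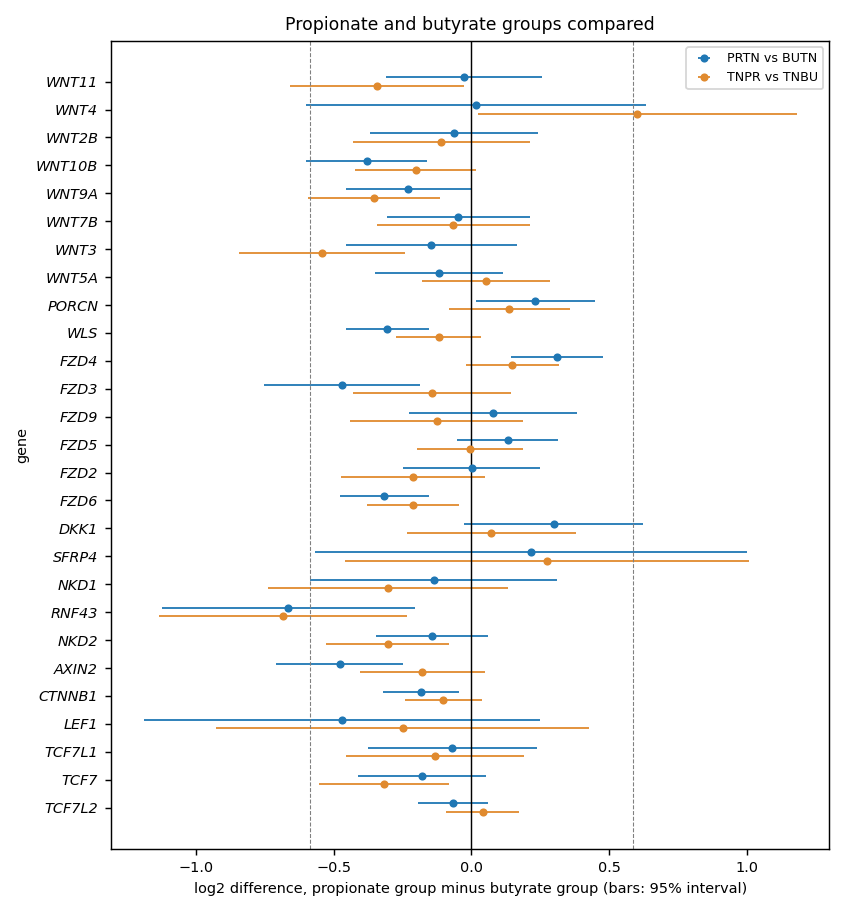
Log2 difference of the propionate group minus the butyrate group for the 27 described WNT genes, before TNF-α (PRTN minus BUTN) and after it (TNPR minus TNBU), with 95% intervals from limma-voom. Most points lie slightly below 0 and the widest intervals belong to genes with few counts such as LEF1 and SFRP4; no gene was called at either time.

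Between an SCFA given after TNF-α and the same SCFA given before it, 1 WNT gene differed. These groups differ in the time since TNF-α as well as in the order, and the 2 cannot be told apart. DKK1 was higher in TNBU (136 and 188 CPM) than in BUTN (81.9 and 85.7 CPM), a log2 difference of 0.93 (SE 0.15, 95% interval 0.61 to 1.25, adjusted p = 0.0145, limma-voom), where 0.0945% of all tested genes were called higher. Both TNBU libraries were above both BUTN libraries, yet the TNBU replicates differed more from each other than the BUTN replicates did. Without TNBU replicate 2 the difference was 0.69 and no longer called (adjusted p = 0.0637, limma-voom), nor was it called without BUTN replicate 1 (adjusted p = 0.197) or BUTN replicate 2 (0.124). The same comparison for propionate, TNPR (146 and 195 CPM) against PRTN (102 and 104 CPM), gave 0.71 (SE 0.14, adjusted p = 0.0877, limma-voom), and no WNT gene was called there, against 0.160% of all tested genes in either direction. At an unadjusted p under 0.05 there were 10 of the 46, and edgeR called 0 and DESeq2 1, which was DKK1.

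Other genes of the pathway were counted by lists. Of 25 further receptors and extracellular modulators, 20 were tested and none was called in TN against Ctrl. Against TN 12, 11, 11 and 13 were called higher and 1, 1, 3 and 2 lower in PRTN, BUTN, TNPR and TNBU, beside 23.1% to 25.0% and 14.8% to 16.9% of all tested genes, and the median log2 fold change of the list was 1.31, 1.45, 1.37 and 1.47, beside 0.08 to 0.12 over all genes, or 0.59, 0.33, 0.28 and 1.27 with 4 genes absent from TN set to their lower bound. Among its genes at 1 CPM or more in a group, the largest changes were those of DRAXIN, a secreted DKK1-like antagonist, of ROR2, a receptor of WNT5A, and of GPC3, a glypican. DRAXIN was at 0.0745 and 0 CPM in TN and 6.51 and 6.20 for PRTN, 7.76 and 8.41 for BUTN, 6.31 and 5.53 for TNPR, and 8.19 and 7.67 for TNBU. ROR2 had no count in Ctrl or TN and was at 0.869 and 0.791 for PRTN, 1.06 and 1.07 for BUTN, 0.859 and 0.768 for TNPR, and 0.631 and 0.863 for TNBU. GPC3 was at 0.410 and 0.323 CPM in TN and 5.67 and 5.90 for PRTN, 5.94 and 7.11 for BUTN, 4.18 and 5.79 for TNPR, and 5.43 and 6.5 for TNBU. All 3 genes were picked by the size of their change in these contrasts. DRAXIN and ROR2, like LGR5, LGR6, SOST and APCDD1 of this list, were at or near 0 in Ctrl and TN and passed the filter through their SCFA libraries. The counts of this list therefore describe it and do not support a difference from other genes, which also holds for the lists below.

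Of 38 further transducers and nuclear partners of the canonical branch 37 were tested, none was called in TN against Ctrl, and in the 4 contrasts with TN 7, 7, 6 and 8 were higher and 9, 7, 9 and 9 lower, beside 23.1% to 25.0% and 14.8% to 16.9% of all tested genes (median log2 fold change of the list -0.22 to 0.08). DACT3, a Dishevelled antagonist, was at 0.410 and 0.682 CPM in TN and 13.7 and 14.2 for PRTN, 11.7 and 11 for BUTN, 13.8 and 14.5 for TNPR, and 11.1 and 12.2 for TNBU. TLE2, a corepressor of the TCF factors, was at 0.372 and 0.610 CPM in TN and 10.0 and 9.82 for PRTN, 11.8 and 9.74 for BUTN, 8.94 and 7.39 for TNPR, and 9.14 and 8.89 for TNBU. TMEM198, a membrane protein linked to LRP6 phosphorylation, was at 1.77 and 2.26 CPM in TN and 7.04 and 8.34 for PRTN, 6.27 and 5.76 for BUTN, 7.91 and 9.23 for TNPR, and 7.33 and 7.60 for TNBU. These 3 genes were likewise picked by the size of their change. In the planar polarity and calcium branch, all 27 listed genes were tested, none was called in TN against Ctrl, and 8 were higher in each SCFA group and 4, 2, 4 and 3 lower. This is close to the 23.1% to 25.0% higher and 14.8% to 16.9% lower of all tested genes, and the median log2 fold change was 0.17 to 0.33. CAMK2B, a calcium-dependent kinase, was at 0.0372 and 0 CPM in TN and 1.13 and 1.70 for PRTN, 1.94 and 2.20 for BUTN, 1.30 and 1.66 for TNPR, and 1.65 and 2.09 for TNBU. The kinase MAPK10 (JNK3) went the other way, from 6.25 and 7.11 CPM in TN to 1.65 and 1.40 for PRTN, 1.09 and 1.19 for BUTN, 2.01 and 1.98 for TNPR, and 1.47 and 1.13 for TNBU. ANKRD6, known as Diversin, was at 3.36 and 2.30 CPM in TN and 9.41 and 9.43 for PRTN, 10.1 and 10.4 for BUTN, 9.92 and 9.45 for TNPR, and 9.60 and 10.3 for TNBU. The same choice by size of change gave these 3 genes.

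Genes often described as targets of β-catenin were called in both directions. Of 33 listed, 31 were tested, 3 were higher in TN than in Ctrl, and against TN 17, 15, 16 and 17 were higher and 8, 6, 9 and 9 lower in PRTN, BUTN, TNPR and TNBU, beside 23.1% to 25.0% and 14.8% to 16.9% of all tested genes. The median log2 fold change was 0.90 to 1.30, or 0.39 to 0.62 with 2 genes absent from TN set to their lower bound, and 7 of the list (AXIN2, LEF1, TCF7, NKD1, RNF43, ZNRF3 and DKK1) are WNT genes described above. Among those at 1 CPM or more in a group, the 3 with the largest changes in 1 direction are LEF1, NKD1 and RNF43. The others that follow were named after their values were seen. FOSL1, CD44 and the cell cycle gene CCND1 were the 3 called in TN against Ctrl (0.76, 0.70 and 0.64 on the log2 scale, adjusted p at most 0.0153 in limma-voom). With SCFAs FOSL1 (-3.01 to -2.22), CD44 (-1.71 to -1.48) and the protease gene MMP7 (-2.98 to -2.28) fell in all 4 groups, while MYC and CCND1 were called in none of them (-0.30 to -0.16 and -0.18 to -0.04). NOTUM, which removes the lipid of WNT ligands, rose in all 4 (2.02 to 2.39).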

How the data were processed

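mRNA from 12 cultures of HK2 cells, 2 biological replicates of each of 6 groups named in the sample labels, was sequenced. For each gene the authors deposited an expected count, obtained from TruSeq stranded mRNA libraries with STAR 2.6.1a and RSEM on GRCh38 with GENCODE annotation, after FastQC 0.11.5. They were neither scaled nor filtered, and reads that fit several genes were shared out by RSEM. The strand setting is not given in the sources used here.

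Counts were used unrounded in limma 3.58.1 (R 4.3.3) with voom weights, TMM factors from edgeR 4.0.16 (0.913 to 1.06) and a mean for each of 6 groups. Genes with a geometric mean of at least 1 count (1 added, then subtracted) were kept, 24342 in all. A call needed a fold change over 1.5 and a Benjamini-Hochberg adjusted p under 0.05. The median SE of a log2 fold change was 0.179 to 0.212. A gene without counts was taken to lie under 3 counts, and intervals at 95% on counts cover counting error only. Scripts were tested on simulated counts.

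The genes, the pathway lists and the marker lists were chosen with earlier results of these data known. Described with a value per library was each WNT gene called in TN vs Ctrl or in a contrast with TN that reached 1 CPM in a group, and of the other lists up to 3 genes that reached 1 CPM in a group, those with the largest change in 1 direction in all 4 contrasts. Promoter stretches needed an entry and 100 bases outside exons. Gene positions and exon lengths come from GENCODE release 44 and promoters from RefSeq. Alternatives were edgeR and DESeq2 1.42.0 on rounded counts, relative log expression factors or library size alone as scaling, no filter or the default filter of edgeR, a fit of the compared groups alone, a 2-fold threshold, the replicate number as a block, and each library left out in turn.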

Additional observations from a re-analysis of the deposited data

Results flagged for a closer look

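DKK1 was called between TNBU, with butyrate after TNF-α, and BUTN, with butyrate before it, at a log2 difference of 0.93 (adjusted p = 0.0145, limma-voom). The time since TNF-α also differs between these groups and cannot be told apart from the order. Both TNBU libraries were above both BUTN libraries. The value was 0.69 to 1.15 when 1 library was left out, and the same comparison for propionate gave 0.71 (adjusted p = 0.0877, limma-voom). In the groups with the SCFA after TNF-α the replicates also differed most over all genes, and the part of that spread in the result was not tested.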

How the results depend on the processing

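Of 117 calls of single genes, each repeated under up to 20 alternatives (all but the 2-fold threshold), none reversed, and 2280 repeats kept the call and 54 lost it. With library size alone WNT genes higher in TN than in Ctrl were 1 (main 2), as they were with no filter (37730 genes) and in a fit of the 2 groups alone, which also gave 0 lower (main 1). A 2-fold threshold left 0 higher and 0 lower there, 2, 1 and 3 lower in PRTN, BUTN and TNPR against TN (main 4, 3 and 5), and 0 higher in TNBU against BUTN (main 1), as did a fit of those groups alone. DESeq2 gave 1 WNT gene higher in TNPR than in PRTN (main 0). Leaving out each library in turn gave 0 to 2 higher and 0 to 1 lower in TN against Ctrl, 0 to 1 higher and 0 to 1 lower in TNPR against PRTN, and 0 to 1 higher in TNBU against BUTN. Against TN it gave 22 to 25 higher and 2 to 7 lower WNT genes.

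The labels do not say that a replicate number marks a shared culture or day. The deviations of same-numbered libraries correlated from -0.05 to 0.11 over all genes, with 1 of 15 pairs of groups over 0.1, and from -0.27 to 0.40 over genes at 10 CPM or more, with 3 of 15 over 0.1 and the highest between TNPR and TNBU, so the numbers were not taken to pair the libraries. With the replicate number as a block, 1 WNT gene (DKK1) was higher in TNPR than in PRTN and the other counts of WNT genes stayed within 1.5 times.

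For the other lists, receptors and modulators had 1 lower in TNPR and in TNBU with library size alone (main 3 and 2), and 8 higher in TNBU with DESeq2 and with only the groups compared (main 13). The planar polarity and calcium list had 1 higher in TN against Ctrl with edgeR (main 0) and 2 lower in PRTN with library size alone (main 4). The β-catenin target list had 1 lower in TN against Ctrl with library size alone, edgeR or DESeq2 (main 0), and 5 lower in TNBU with library size alone (main 9). The cause of these shifts was not tested. With 2 replicates per group the spread rests on all groups together, and genes under about 0.1 CPM are at the limit of detection.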
